A study of Mus musculus with 6 samples.

Results

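Of the 707 microRNA (miRNA) names counted in small RNA libraries of macrophage exosomes, 6 are described here: mmu-miR-328-5p, its partner arm mmu-miR-328-3p, mmu-miR-149-3p, mmu-miR-1249-5p, mmu-miR-139-3p and mmu-miR-3960, written below without the mouse prefix. Of these, 5 were chosen by their raw counts, which were higher in the wild-type (WT) libraries than in the mutant ones. They were taken among arms usually found as the minor ones of their hairpins and names rich in G and C. miR-328-3p was added as the other arm of miR-328. The counts of both genotypes therefore chose the members, and their differences between genotypes are given as a description, with counting intervals and no test. The libraries came from exosomes, small vesicles that cells release, collected from cultured bone marrow-derived macrophages. The groups were 3 samples of the Roquin-1 san:san genotype and 3 WT samples, all of strain C57BL/6. Roquin-1 binds stem-loops in messenger RNAs and speeds their decay, and san stands for its sanroque allele. No treatment of the macrophages, age, sex or number of mice is given in the labels. Whether the replicates were separate mice or cultures is not stated either, so p-values reflect the spread among these libraries alone, and that spread may be technical.

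A miRNA is cut from one side of an RNA hairpin. The hairpin yields a 5p arm and a 3p arm; usually one of them, the guide, is loaded into an Argonaute protein and kept, while the other, the passenger or minor arm, is degraded. The loaded arm finds its target messenger RNAs mainly through its seed, the bases near its 5′ end. The arms usually found as guides are miR-328-3p, miR-149-5p, miR-1249-3p and miR-139-5p, so the WT-enriched arms are the opposite ones. miR-328-3p is known from human leukaemia as a decoy that binds an RNA-binding protein, miR-139-5p as a growth-suppressing miRNA, and miR-3960 from mouse osteoblasts as a miRNA of bone formation that is made beside miR-2861.

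The sequences below are shown because the WT-enriched arms differ from their partners in base composition and seed. They are from RefSeq (build GRCm38.p6), which held a mature sequence for 2 of the 6 members, miR-149-3p and miR-139-3p. Capitals mark the seed, bases 2 to 8 from the 5′ end.
miR-149-3p: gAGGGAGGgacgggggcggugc
miR-149-5p: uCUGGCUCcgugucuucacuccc
miR-139-3p: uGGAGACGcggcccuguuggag
miR-139-5p: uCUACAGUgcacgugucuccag
miR-1249-3p: aCGCCCUUcccccccuucuuca

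For miR-1249 and miR-3960 the table gave the hairpin. In the miR-1249 hairpin, at chr15:84951526-84951623 on the minus strand, capitals mark the 3p arm, and the purine-rich stretch before the loop lies on the 5p side. In the miR-3960 hairpin, at chr2:32712900-32712972 on the minus strand, capitals mark the longest run of GGC repeats.
Mir1249: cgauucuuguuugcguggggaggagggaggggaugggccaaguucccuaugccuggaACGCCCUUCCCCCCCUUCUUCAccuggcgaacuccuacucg
Mir3960: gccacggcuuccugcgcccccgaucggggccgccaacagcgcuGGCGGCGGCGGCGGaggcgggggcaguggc

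The mature miR-149-3p was 81.8% G and C, above 98.4% of the 573 names of the table that had a sequence, and 68.2% of its bases were G. Its partner miR-149-5p had 60.9% G and C and 17.4% G. miR-139-3p had 68.2% G and C, against 54.5% in miR-139-5p. The miR-3960 hairpin had 82.2%, with a GGC run of 14 bases. No member with a sequence shared its seed with another member. The seed AGGGAGG of miR-149-3p also occurred in miR-1943-5p, with 2 counts over the san:san libraries and 4 over WT, and in miR-6967-5p, with 0 and 3.

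In the GENCODE annotation of the same build, the miR-149 hairpin (chr1:92850378-92850443) lies in an intron of Gpc1, a cell-surface proteoglycan gene, and the miR-139 hairpin (chr7:101475376-101475443) in an intron of Pde2a, a phosphodiesterase gene, both on the strand of the host gene. The miR-1249 hairpin overlaps an exon of 5031439G07Rik and the miR-3960 hairpin an exon of Cdk9, the gene of a transcription kinase, again on the same strand. The miR-328 hairpin (chr8:105308364-105308460, minus strand) overlaps an exon of Elmo3, an engulfment and cell motility gene, which runs on the opposite strand. The members' hairpins thus lie on 5 chromosomes and form no common cluster, and the hairpin of miR-2861 lies 11 bases from that of miR-3960.

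The san:san libraries held 185901, 160588 and 126098 counts and the WT libraries 12447, 28884 and 21754, so the san:san total was 7.49 times the WT total. One count was worth between 6.38 and 10.4 CPM in san:san libraries and between 28.1 and 70.4 CPM in WT libraries (counts per 1000000 library counts after TMM scaling, which assumes most miRNAs do not differ). A library with 0 counts of a miRNA could have held up to 31.1 CPM in the shallowest san:san library (a count of 0 allows up to 3 counts). These floors and all counting intervals cover counting error only. Macrophage and myeloid miRNAs, all 7 of the list present, made up 10.4% to 11.96% of counts in san:san and 5.23% to 6.19% in WT. Among markers of other cells, the erythroid and lymphocyte shares differed between genotypes without overlap, while the endothelial and liver shares overlapped. Erythroid miRNAs, all 5 present, made up 15.6% to 17.9% in san:san and 3.84% to 6.25% in WT. Of these 5, miR-486a-5p and miR-486b-5p had identical counts in every library, so the same reads may be counted under both names. The lymphocyte marker miR-150-5p made up 1.38% to 1.92% and 0.409% to 0.492%, and both endothelial markers together 3.37% to 6.96% and 1.82% to 3.69%. The 5 stromal markers made up 0.741% to 0.833% in san:san and 0.844% to 1.32% in WT. These shares of raw counts, taken without TMM scaling, lay only just apart. Of the 5, 1 was higher and 1 lower in san:san (edgeR adjusted p under 0.05). The liver marker miR-122-5p made up 0.420% to 0.580% in san:san and 0.501% to 0.699% in WT. The 5 epithelial markers stayed at or below 0.0127% in san:san and 0.0138% in WT, and the 3 muscle markers at or below 0.00747% and 0.0312%. The part of depth and of these cell types in the values below was not tested. In exosomes pooled from a culture, fewer vesicles of a kind and less of a miRNA per vesicle cannot be told apart.

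The 5 WT-enriched members together held 8, 8 and 2 counts in the san:san libraries, against 61, 86 and 68 in the WT libraries. As a share of all counts this was 0.00362% ± 0.00180 in san:san and 0.367% ± 0.107 in WT (SD, n = 3 each). The choice of the members sets this direction. Over the whole table, 177 of the 707 names (25.0%) had more summed raw counts in WT although those libraries were shallower, 45 of them with at least 20 counts in all. Ranked by their excess of WT counts, the 5 members stood between 17th and 36th. Among names with at least 20 counts, those just inside the rule were miR-219a-5p (15 counts over san:san and 17 over WT), miR-10b-3p (11 and 14) and miR-25-5p (18 and 23). Just outside it were miR-669p-3p (29 and 29), miR-23b-5p (13 and 13) and miR-101b-3p (13 and 13).

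miR-3960, whose targets in mouse osteoblasts include a repressor of bone formation, was the most abundant of the 5 in WT. It had 3, 3 and 0 counts in the san:san libraries and 21, 24 and 19 in the WT libraries. Scaled, this was 14.0 ± 12.3 CPM in san:san and 949 ± 458 CPM in WT. Every WT library was above every san:san library. The ratio of scaled counts, san:san over WT, was 0.0188 (95% exact counting interval 0.00665 to 0.0432), or 53.2-fold lower. Its neighbour miR-2861 had 0 counts in san:san and 1 count in WT.

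miR-328-5p had the same counts as miR-3960 in the san:san libraries, 3, 3 and 0, and 17, 18 and 20 counts in the WT libraries. This corresponded to 14.0 ± 12.3 CPM in san:san and 812 ± 352 CPM in WT, with no overlap. The ratio was 0.0219 (interval 0.00770 to 0.0507), or 45.7-fold lower. The other arm, miR-328-3p, differed in the opposite direction. It had 273, 268 and 172 counts in san:san and 13, 20 and 10 in WT, which is 1855 ± 162 CPM in san:san and 614 ± 278 CPM in WT, a ratio of 3.32 (interval 2.44 to 4.64).

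miR-149-3p had 0, 1 and 0 counts in the san:san libraries and 16, 19 and 11 in the WT libraries. Its WT level was 687 ± 385 CPM, and the single san:san count lay at 7.61 CPM. The ratio was 0.00436 (interval 0.000108 to 0.0255), and the width of the interval comes from that 1 count. miR-1249-5p had 1, 0 and 1 counts in san:san and 4, 18 and 12 in WT, at 5.58 ± 5.23 CPM in san:san and 409 ± 115 CPM in WT. Its ratio was 0.0118 (interval 0.00137 to 0.0460), or 84.8-fold lower.

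miR-139-3p, the minor arm of a hairpin whose 5p arm suppresses growth, was the least abundant member in WT. It had 1, 1 and 1 counts in san:san and 3, 7 and 6 in WT, at 8.12 ± 2.04 CPM in san:san and 209 ± 11.8 CPM in WT. The ratio was 0.0376 (interval 0.00702 to 0.131), or 26.6-fold lower. The counting intervals of the 5 ratios overlapped one another, so no order among them can be read from these counts.

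**Figure D1:**
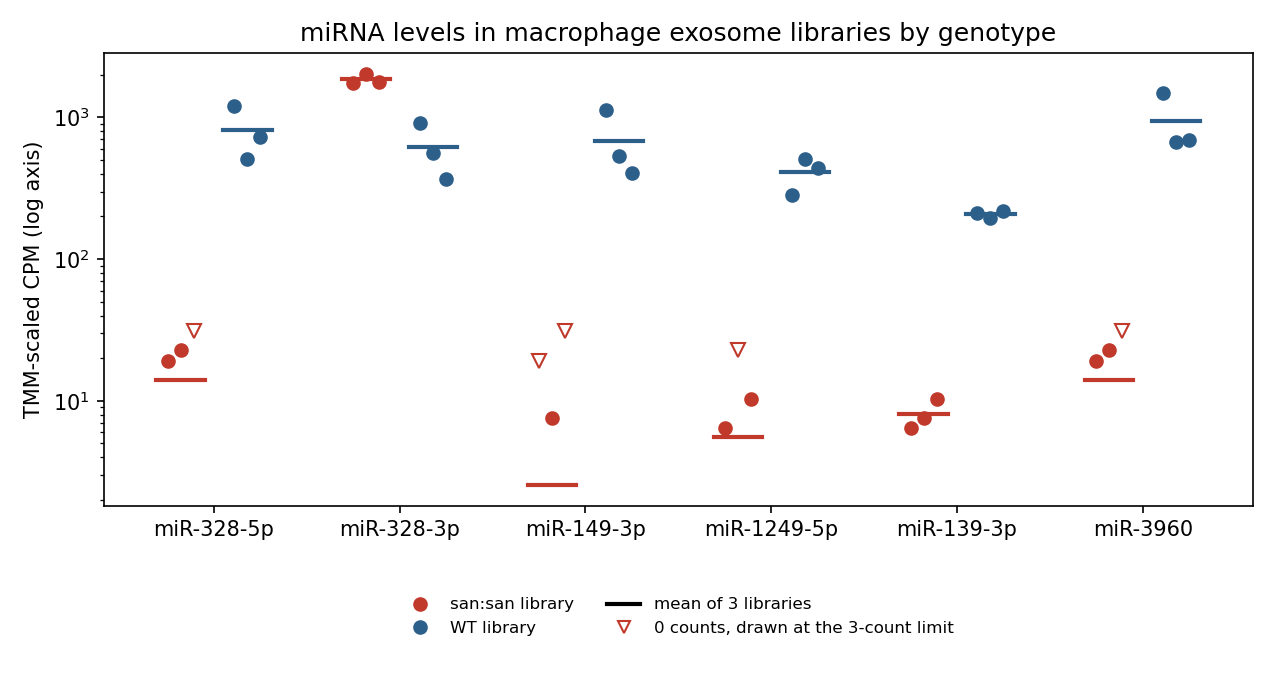
TMM-scaled CPM (log axis) of each member in the 3 san:san libraries (red) and the 3 WT libraries (blue). Bars are means of 3 libraries with zeros entered as 0, and open triangles mark libraries with 0 counts, drawn at the level of 3 counts. All members except miR-328-3p lie lower in every san:san library, and miR-328-3p lies between 1742 and 2040 CPM in san:san and between 366 and 915 CPM in WT.

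In WT the order by mean level was miR-3960, miR-328-5p, miR-149-3p, miR-328-3p, miR-1249-5p and miR-139-3p, and the library values of each of the first 5 overlapped those of its neighbour. Only miR-139-3p, at 197 to 220 CPM, lay below the range of the name above it, miR-1249-5p at 281 to 505 CPM. miR-3960 ranked 101st of the 707 names by its WT level and miR-1249-5p 153rd. In san:san miR-328-3p ranked 71st, and the other members ranked between 400th and 566th with overlapping values. Levels are compared per read with no correction for length, since 1 read covers a whole miRNA. Whether different miRNAs entered the libraries equally well was not tested, so the order is one of reads. Within WT, replicate 1, the shallowest library, had the highest scaled level of miR-3960 (1478 CPM), miR-328-5p (1196 CPM), miR-149-3p (1126 CPM) and miR-328-3p (915 CPM). The levels of miR-1249-5p and miR-139-3p were not highest there. Among the 5 WT-enriched members, the smallest distance between the lowest WT and the highest san:san level was that of miR-139-3p, at 197 CPM in WT replicate 2 and 10.4 CPM in san:san replicate 3.

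All 6 members passed the filter on low counts. The 5 WT-enriched members passed it through the WT libraries alone, with 3 WT libraries and 0 san:san libraries above its level, so they had to differ once they were tested. Among all 254 miRNAs tested with edgeR's quasi-likelihood test, 75 (29.5%) were lower and 88 (34.6%) higher in san:san at an adjusted p under 0.05. Together these were most of the tested names, whereas TMM scaling assumes that most do not differ. The split into lower and higher depends on the scaling, with 101 lower and 49 higher of the same 254 with total counts. DESeq2, which also used another test and no such filter on the 707 names, gave 104 lower and 62 higher. Of the 254, 79 (31.1%) had every san:san library below every WT library. The median log2 fold change of all tested miRNAs was 0.29 with TMM, 0.04 with RLE factors and -0.30 with total counts. The filter was reached through WT libraries alone by 44 of the 254 and through san:san libraries alone by 4.

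Nearly all miR-328 counts were of the 3p arm in san:san, whereas the 2 arms were about equal in WT. The 5p arm made up 1.09%, 1.11% and 0% of both arms' counts in the san:san libraries, out of 276, 271 and 172 counts, and 56.7%, 47.4% and 66.7% in the WT libraries, out of 30, 38 and 30. The exact 95% binomial intervals reached at most 3.20% in any san:san library and began at 31.0% or above in each WT library, where all 3 included equal shares of the arms. For 0 of 172 counts the exact interval reached 2.12%, and 3 counts would be a share of 1.74%. The mean was 0.731% ± 0.633 in san:san and 56.9% ± 9.65 in WT (SD, n = 3 each), a difference of -56.2 percentage points. In pooled counts the ratio of 5p to 3p was 0.00842 in san:san, with 6 and 713 counts, and 1.28 in WT, with 55 and 43 counts. Both arms summed gave 1869 ± 168 CPM in san:san and 1426 ± 594 CPM in WT, a ratio of 1.47 (interval 1.19 to 1.84), and the library values of the 2 genotypes overlapped. The arms thus differed far more than the hairpin's total.

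In the miR-149 hairpin the 3p arm was the minor one in each san:san library and the major one in each WT library, on fewer counts. The 3p arm made up 0 of 22, 1 of 25 and 0 of 13 counts in the san:san libraries, and 16 of 17, 19 of 22 and 11 of 15 in the WT libraries. As means the shares were 1.33% ± 2.31 in san:san and 84.6% ± 10.5 in WT. The partner arm miR-149-5p had 22, 24 and 13 counts in san:san and 1, 3 and 4 in WT, at 153 ± 26.2 CPM in san:san and 100.4 ± 40.6 CPM in WT. Its ratio was 1.48 (interval 0.704 to 3.58), which turned to just below 1 with total counts (log2 -0.02), and it was too low to test. Summed over both arms miR-149 was lower in san:san, at 155.1 ± 30.6 CPM, against 788 ± 355 CPM in WT.

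miR-1249 had the fewest counts. Its 5p arm made up 1 of 9, 0 of 5 and 1 of 6 counts in san:san and 4 of 5, 18 of 19 and 12 of 13 in WT. The 5p arm was thus the minor one in each san:san library and the major one in each WT library. By mean CPM over the 6 libraries, miR-149-3p and miR-1249-5p were the larger arms of their hairpins. With so few counts the interval of san:san replicate 3 reached 64.1% and that of WT replicate 1 began at 28.4%, so the intervals of single libraries overlap while the shares themselves do not. Pooled, the share was 2 of 20 counts in san:san (exact interval 1.23% to 31.7%) and 34 of 37 in WT (78.1% to 98.3%). The partner arm miR-1249-3p had 8, 5 and 5 counts in san:san and 1 in each WT library, a ratio of 1.203 (interval 0.351 to 6.38) that was below 1 with total counts (log2 -0.32).

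In miR-139 the 5p arm remained the major one in both genotypes. The 3p arm made up 0.347%, 0.592% and 0.775% of both arms' counts in san:san, with 1 count in each library, and 3 of 15, 7 of 37 and 6 of 26 counts in WT, without overlap. The means were 0.571% ± 0.215 in san:san and 20.7% ± 2.16 in WT. miR-139-5p was the only one of the 3 added partner arms that passed the filter on low counts. It had 287, 168 and 128 counts in san:san and 12, 30 and 20 in WT, at 1479 ± 306 CPM in san:san and 807 ± 63.8 CPM in WT. It was higher in san:san by log2 0.86 ± 0.25 (SE, edgeR adjusted p = 0.00806). It did not pass with total counts (log2 0.28, adjusted p = 0.373), with DESeq2 (0.72, 0.0807), without WT replicate 2 (0.82, edgeR 0.0649) or without san:san replicate 1 (0.68, edgeR 0.0507).

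**Figure D2:**
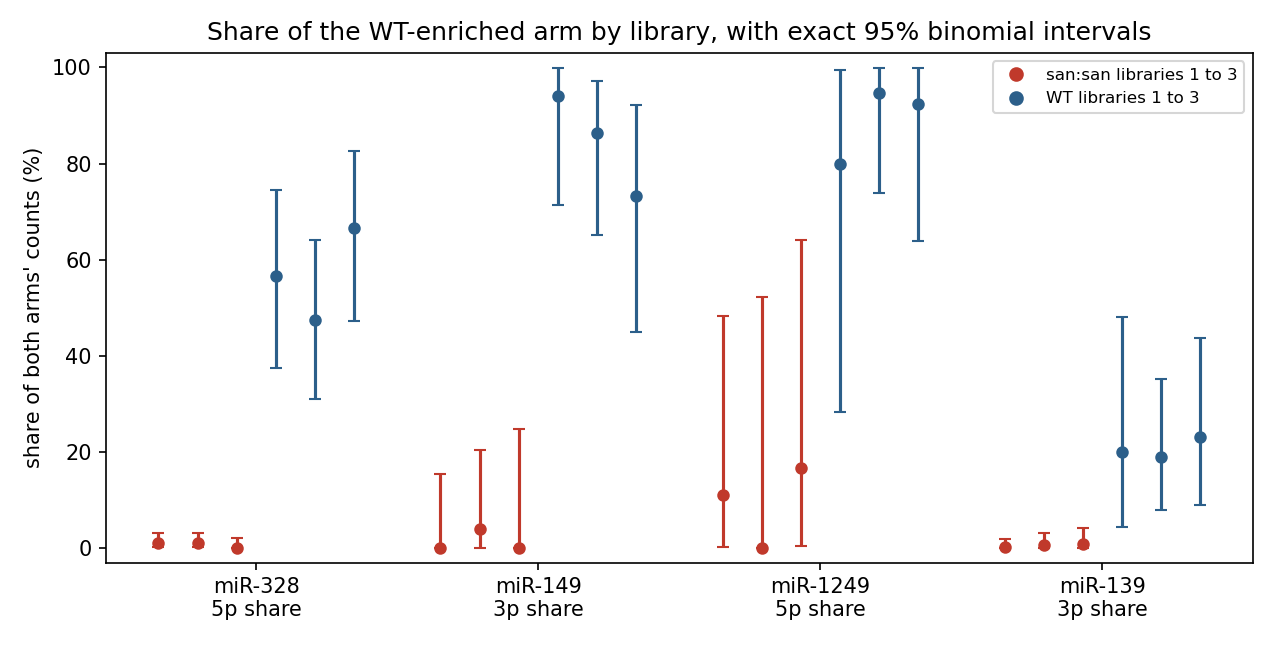
Share of both arms' counts (%) held by the WT-enriched arm of 4 hairpins, in the 3 san:san libraries (red) and the 3 WT libraries (blue), with exact 95% binomial intervals. The miR-328 5p share is at most 1.11% in san:san and at least 47.4% in WT, while the wide intervals of miR-1249 come from libraries with 5 to 19 counts.

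To set miR-328 beside other hairpins, the 5p share was computed for the 49 hairpins whose arms summed to 20 or more counts in each library. The minor arm, taken as the arm with the smaller mean CPM over the 6 libraries, had a higher share in every WT library than in any san:san library in 9 of the 49 (18.4%), miR-328 among them, and a lower share in 12. Among these 9 the difference of miR-328, a hairpin chosen for it, was the largest, followed by miR-23a, where the 5p arm made up 1.10% ± 0.473 in san:san and 39.6% ± 5.42 in WT. The next were miR-125a (3p share 4.54% in san:san and 43.0% in WT) and miR-99b (9.40% and 41.6%). The arm with the higher mean CPM differed between genotypes in 3 of the 49 hairpins, miR-328, miR-532 and miR-674, although in miR-328 the 5p arm was ahead in only 2 of the 3 WT libraries. For miR-674 the 5p share was 32.2% ± 9.87 in san:san and 72.8% ± 12.5 in WT, and for miR-532 50.3% ± 5.02 and 38.5% ± 4.24. The san:san arms of miR-532 were close to a tie. Their pooled counts, 367 of 5p and 372 of 3p, put the 3p arm ahead, as in WT. With a minimum of 10 counts, which admits 72 hairpins, miR-149 was the fourth.

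**Figure D3:**
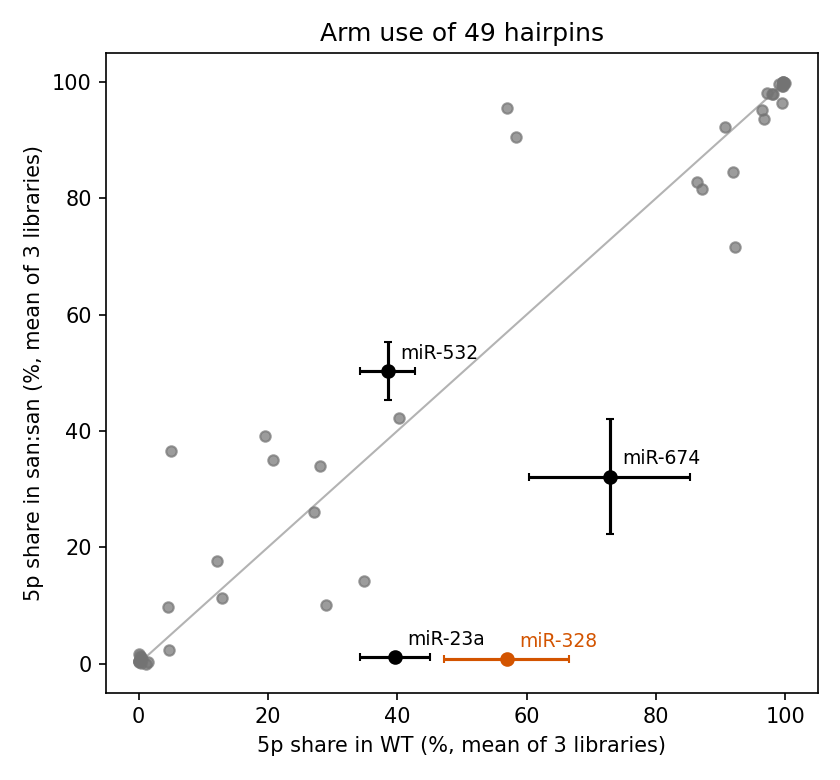
Mean 5p share of both arms (%) in san:san against WT for 49 hairpins, each point 1 hairpin over 3 libraries per genotype, with SDs for the named ones. Points on the line have equal shares, and miR-328 lies far below it, at 0.731% in san:san and 56.9% in WT.

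On a log2 scale the difference in the pooled 5p to 3p ratio of miR-328, with 0.5 added to each count, was -7.13 (san:san minus WT), against a median size of 1.04 over the 49 hairpins. The 4 hairpins nearest to it in size were miR-150, miR-486a, miR-486b and miR-23a. In miR-150 and in both miR-486 names, whose counts are identical, the 3p arm had 0 counts in san:san and 1 and 5 counts in WT, so their values rest on the added 0.5. miR-23a, with 86 and 8588 counts of the 5p and 3p arms in san:san and 1261 and 1948 in WT, had a difference of -6.01.

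Since both members with a mature sequence were rich in G and C, base composition was looked at over all tested miRNAs with a sequence, 208 of the 254. Of the 36 with at least 60% G and C, 19 were lower and 9 higher in san:san (edgeR adjusted p under 0.05), with a median log2 fold change of -0.79. Of the 172 below 60%, 35 were lower and 67 higher, with a median of 0.51. Without miR-149-3p and miR-139-3p, 17 of 34 GC-rich miRNAs were lower, with a median of -0.46. With total counts 22 of the 36 were lower and 8 higher (median -1.35), and 54 of the 172 were lower and 31 higher (-0.04). The filter was reached through WT libraries alone by 15 of the 36 and by 18 of the 172, and such names had to be lower in san:san once tested. Apart from miR-149-3p and miR-139-3p, these names stay among the 34, so leaving out the members is no check on the pattern. All of them stay in the correlations that follow. Across the 208 miRNAs, which share the 6 libraries and their depths, GC content and log2 fold change had a Pearson r of -0.27 and a Spearman rho of -0.23, given as a description. Beside miR-149-3p, the names with the highest GC content were miR-615-5p, miR-1895 and miR-326-5p. Each of these 3 passed the filter through 3 WT libraries and 0 san:san libraries, so they too had to be lower in san:san, and no test is given. miR-615-5p, with 77.3%, had 3, 0 and 3 counts in san:san and 2, 9 and 7 in WT. miR-1895, with 72.7%, had 3, 6 and 2 counts in san:san and 6, 9 and 4 in WT, and miR-326-5p, with 70.8%, had 1, 3 and 0 in san:san and 4, 8 and 6 in WT.

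**Figure D4:**
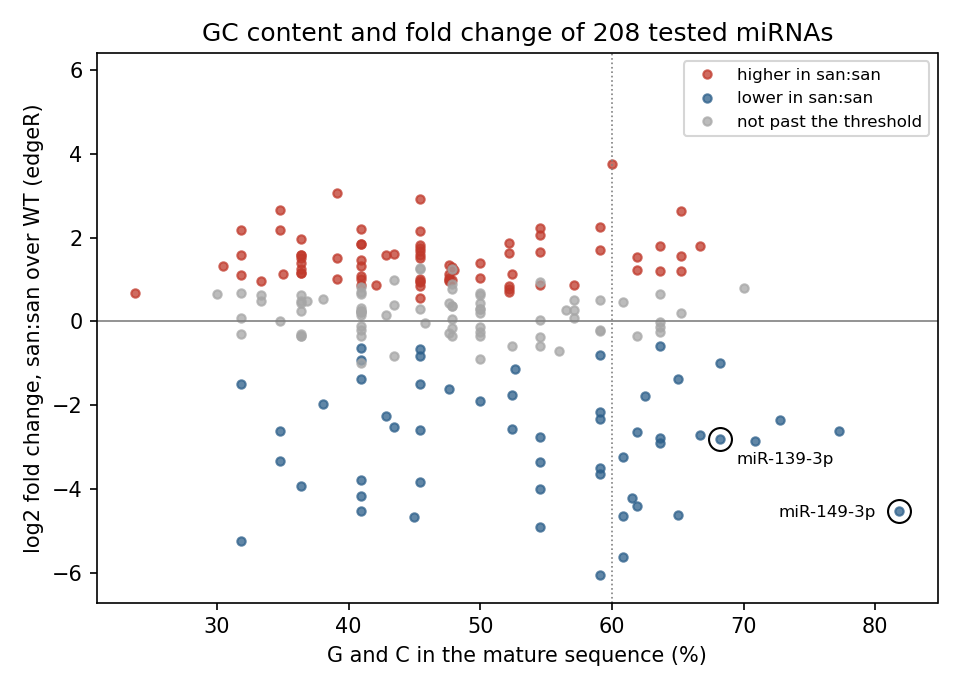
Log2 fold change of san:san over WT (edgeR, prior count of 2) against the G and C content (%) of the mature sequence for 208 tested miRNAs, with names higher (red), lower (blue) or not past an adjusted p of 0.05 (grey). The dotted line marks 60%, and circles mark the 2 members with a sequence, miR-149-3p at 81.8% and miR-139-3p at 68.2%.

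The names whose profile over the 6 libraries was most like the mean of the 5 WT-enriched members were miR-130a-3p, miR-125a-3p, miR-706, miR-193a-5p and miR-3473e. Likeness was the Euclidean distance between log2 CPM values (prior count of 2) centred on each name's mean. It was 0.62, 0.70, 0.81, 0.81 and 0.87 for these names, against 0.81 to 1.58 for the 5 members themselves. The prior count shrinks the differences of low counts, so it flattens the members more than abundant names. As ratios of scaled counts, miR-130a-3p, miR-125a-3p, miR-706 and miR-193a-5p were 13.7- to 19.8-fold lower in san:san, and miR-3473e 38.2-fold. The 5 members were 26.6- to 229-fold lower, so the likeness holds for the shrunken values only. miR-130a-3p was far more abundant than the members, at 2016 ± 498 CPM in san:san and 36868 ± 8220 CPM in WT. miR-3473e was close to them in level, with 4, 4 and 4 counts in san:san and 16, 49 and 27 in WT. Its GC content was 61.9%, and that of miR-130a-3p was 40.9%. The profile is therefore not restricted to GC-rich names among these 5.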

How the data were processed

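Small RNA libraries of exosomes from 3 san:san and 3 WT macrophage supernatants were grouped by their sample titles. The authors deposited whole-number counts per mature miRNA, and per sample a scaled signal that its header calls tpm. Every scaled value was a whole multiple of 1 read, within 0.1 reads, in 100% of values, and the reads equalled the counts except for 1 entry. Per the submitters' processing notes the build was mm9; the aligner, the trimming and the miRNA release were not given in the sources used here. Columns of other series numbered 0.

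The members and lists were chosen with earlier results of these data known. Counts were tested with edgeR 4.0.16 (R 4.3.3; quasi-likelihood, TMM, filterByExpr with a minimum count of 10, genotype as the only term, prior count of 2, which pulls fold changes of low counts toward 0) with Benjamini-Hochberg adjustment over 254 miRNAs. The procedure was tested on simulated data in which most miRNAs did not differ and as many rose as fell. That setting does not cover data in which most tested names differ, so it is no check of the scaling here. DESeq2 1.42.0 was an alternative. Ratios are of TMM-scaled summed counts, with exact 95% conditional binomial intervals; shares have Clopper-Pearson intervals. Named miRNAs were the members, their partner arms and miR-2861, names with a member's seed, the 5 nearest profiles, names at the edge of the rule, the 4 hairpins nearest miR-328 in arm change and the 4 tested names highest in GC content. Other hairpins named in the arm comparison were chosen after their values were seen. RefSeq and GENCODE annotations of GRCm38 gave sequences and positions, and no coordinates of the authors' reads were used.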

Additional observations from a re-analysis of the deposited data

How the results depend on the processing

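Over 100 alternative values of the members' log2 ratios (other scalings, the authors' library scale, fitted values with prior counts of 0.5, 2 and 5, no filter, DESeq2, the median of pairwise ratios and each library left out), 0 changed direction. The choice of the 5 WT-enriched members set their direction, and no member's library values overlapped between genotypes. This count was therefore largely fixed in advance and is no check of the direction. For miR-149-3p there were 15 alternatives in place of 17, since without san:san replicate 2, which holds its only san:san count, its ratio is 0, and the median of its pairwise ratios is 0 too. On the log2 scale, these aside, the range was -6.10 to -3.35 for miR-328-5p, -8.43 to -3.36 for miR-149-3p, -6.99 to -2.82 for miR-1249-5p, -5.32 to -1.91 for miR-139-3p, -6.32 to -3.56 for miR-3960 and 1.15 to 1.96 for miR-328-3p. With a library left out, the miR-328 5p share differed by -60.9 to -51.3 percentage points, miRNAs lower in san:san numbered 62 to 85 and miRNAs higher 69 to 90. Total counts gave 49 higher. For miR-139-5p the log2 fold change was 0.28 with total counts and 0.72 with DESeq2, past the threshold with neither, and 0.68 to 0.98 with a library left out. The ratios of 2 partner arms too low to test turned below 1 (log2): miR-149-5p with total counts (-0.0226) and the authors' scale (-0.0033), and miR-1249-3p with total counts (-0.32), the authors' scale (-0.30) and without WT replicate 2 (-0.0422, the range with a library left out being -0.0422 to 0.56). The cause was not tested. With the replicate number as a block, 71 miRNAs were lower and 90 higher. Same-numbered samples correlated at 0.10, -0.08 and 0.26 in their deviations from the group means, and differently numbered ones at -0.21 to 0.15. With 3 libraries per genotype, these values cannot decide whether the numbers pair the samples. Reads recovered from the scaled values, an alternative chosen after seeing the data, gave 75 lower and 88 higher. Low counts limit the san:san values of the 5 WT-enriched members, each of which rests on 1 to 6 counts, although the san:san libraries were the deeper ones.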
